A study of Mus musculus with 8 samples.

Results

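Collagen IV is the network-forming collagen of basement membranes, and its 6 chains are encoded by Col4a1 to Col4a6. All 6 genes were found by symbol among the 55401 genes of the count table, and all 6 passed the filter on low counts that left 15788 tested genes. The RNA came from lungs of mouse embryos at E13.5, with 4 libraries labelled cre control and 4 libraries from mutants labelled with Tbx4tetOcre and the Myrf allele MyrfE6. The labels do not explain these names, do not say in which cells or when the cre acted, and do not list the alleles that the controls carried. Nothing in them states how many embryos or litters stand behind each library, so every p-value below measures only the spread between these libraries, which may in part be technical. By its title, the study is about MYRF, a transcription factor made as a membrane protein, in the mesothelium, the outer lining of the lung. The family was chosen by measured values of this same contrast, the lower levels of Col4a3 and Col4a4 in mutants, so its members' differences between mutant and control are given as a description, without p-values.

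Collagen IV chains fold into trimers, and the chains that can join are fixed by their C-terminal domains. The trimer of 2 α1 chains and 1 α2 chain is found in nearly all basement membranes. The trimer of α3, α4 and α5 chains is found in specialised membranes, best known in the kidney glomerulus and also described in lung, and the trimer of α5 and α6 chains lies around smooth muscle and in some epithelial membranes. The genes form 3 pairs, each read in opposite directions from a shared promoter region. Because a trimer needs its partners, the levels of the chains relative to each other were described beside the level of each gene.

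The annotated starts of the pairs lay at different distances (GRCm38, coordinates of the count table). Col4a1 lay on the minus strand of chromosome 8 from 11198423 to 11312826 and Col4a2 on the plus strand from 11312805 to 11449287, so their first exons shared 22 bases on opposite strands. Col4a4 lay on the minus strand of chromosome 1 from 82448423 to 82586849 and Col4a3 on the plus strand from 82586921 to 82722059, with 71 bases between the starts. Col4a6 lay on the minus strand of chromosome X from 141165403 to 141474076 and Col4a5 on the plus strand from 141475385 to 141689234, with 1308 bases between them. No exon of a member overlapped a gene on the same strand. On the opposite strand, exons overlapped 1 gene for Col4a1, 2 for Col4a2, 1 for Col4a3 and 0 for each other member. Reads were counted by strand, so the 22 shared bases should not have mixed the counts of Col4a1 and Col4a2. How completely the libraries kept the strand was not tested.

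**Figure D1:**
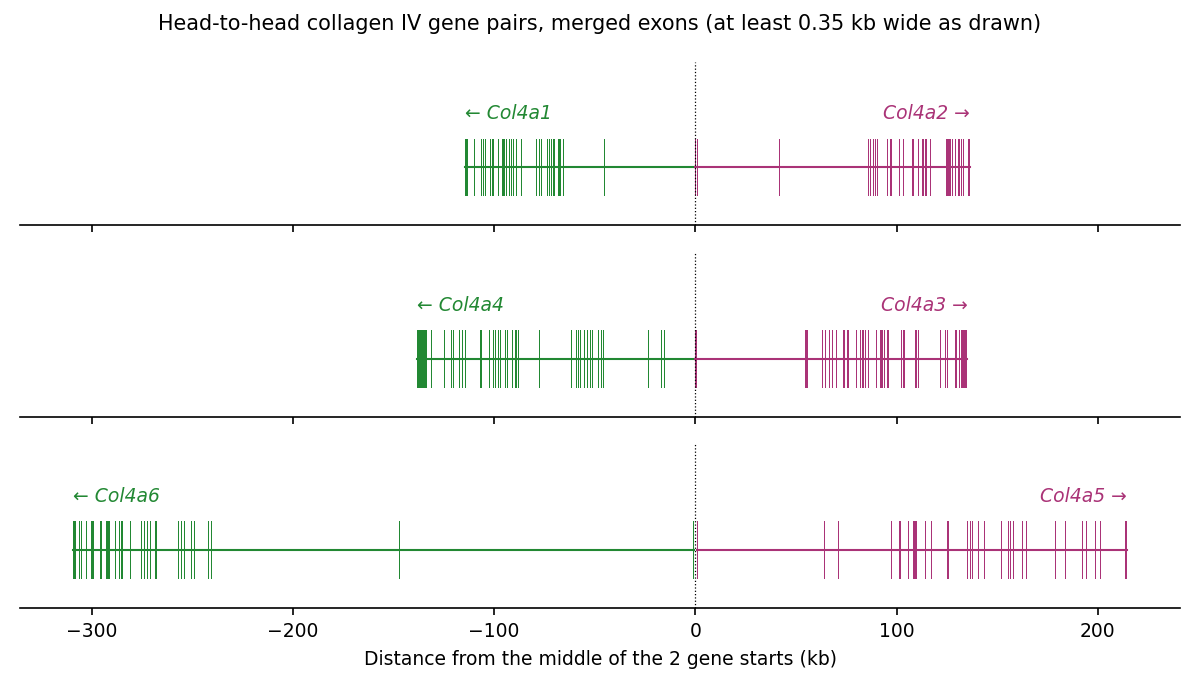
Exon maps of the 3 gene pairs, with distance in kb from the middle of the 2 gene starts on the horizontal axis. Vertical bars are merged exons and arrows give the direction of transcription. The starts of each pair meet at 0, with 71 bases between Col4a4 and Col4a3 and 1308 bases between Col4a6 and Col4a5.

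The stretch between Col4a4 and Col4a3 is shown because both genes of this pair differed between mutant and control, and the 71 bases before the starts of Col4a6 and Col4a5 are shown for comparison. The sequences were taken from RefSeq promoter windows on GRCm38.p6, which held 5 of the 6 members. They are written 5′ to 3′ in the sense of the first gene named, and capitals mark the only match, on the opposite strand, to GGGCGG, the GC box.
Col4a4 to Col4a3, chr1:82586850-82586920, minus strand: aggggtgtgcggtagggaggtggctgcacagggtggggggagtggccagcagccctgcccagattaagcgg
Col4a6 upstream, chrX:141474077-141474147, minus strand: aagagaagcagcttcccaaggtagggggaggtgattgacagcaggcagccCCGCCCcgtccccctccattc
Col4a5 upstream, chrX:141475314-141475384, plus strand: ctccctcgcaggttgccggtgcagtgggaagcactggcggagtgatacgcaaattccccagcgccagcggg

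The stretch between Col4a4 and Col4a3 was 69.0% G and C, that before Col4a6 63.4% and that before Col4a5 66.2%, beside a median of 54.9% in the 71 bases before the start over 32851 promoter windows of the table. None of the stretches held the CCAAT box or the TATA box letters TATAAA on either strand. The letters CTGGCAC, and the variant form CTGGTAC, belong to the motif known for MYRF from oligodendrocytes, and neither was found on either strand. The share of windows of that length holding a motif was 20.7% for GGGCGG, 13.3% for CCAAT, 4.41% for TATAAA, 1.08% for CTGGCAC and 0.405% for CTGGTAC. No searched motif is contained in another, and their absence says only that these letters are not in these windows. In the 250 bases before the RefSeq starts of Col4a1, Col4a2, Col4a4, Col4a5 and Col4a6, neither MYRF form was present, where 4.19% and 1.83% of windows of that length held one. The RefSeq window of Col4a5 ended at 141475418 and so reached past the start in the count table into the gene. The windows of Col4a1 and Col4a2 were the richest in G and C of the 5, at 74.4% and 73.6%, and these 2 and the window of Col4a5 each held 1 CCAAT. Over all windows of that length the median was 52.4% G and C, and 33.8% held CCAAT. The windows of Col4a1 and Col4a2 each lay within the partner gene, and that of Col4a4 reached into Col4a3.

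Myrf itself measured 106.9 to 120.5 CPM (counts per mega-count of the library total after TMM scaling) in control libraries and 84.4 to 92.4 CPM in mutants, lower in every mutant than in every control. Total counts were 17799899 to 19032389 in controls and 17819285 to 48679134 in mutants, with mutant replicate 2 the deepest library. Libraries differed in sex-linked transcripts, given here without TMM scaling. Control replicates 2 and 3 had 863 to 869 CPM of Xist and at most 0.0562 CPM of 4 Y-linked genes, mutant replicates 1 and 2 had at most 0.596 CPM of Xist and 133.8 to 143.8 CPM of the Y-linked genes, and the other 4 libraries, 2 per group, had both.

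Of the 6 collagen IV genes, Col4a3 and Col4a4 fell in the mutant lung and the other 4 did not pass (edgeR quasi-likelihood test, adjusted p below 0.05 over all tested genes). The background share of genes called was 1.49% of 15788 in either direction and 0.931% for lower genes. In 2 of the 6 the control and mutant libraries did not overlap, which held for 7.37% of all tested genes. Because this contrast was known when the genes were chosen, nothing is read from either count. The whole-table count of 236 genes was 100, 121 and 96 with control replicate 1, 2 or 3 left out. It was 118 with mutant replicate 2 and 479 with mutant replicate 4 left out.

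Col4a4, which encodes the α4 chain, had 25.8, 31.1, 30.5 and 27.7 CPM in the controls, in the order of their replicate numbers, and 13.2, 15.5, 14.7 and 15.6 CPM in the mutants. Every mutant lay below every control, with a wide gap between the highest mutant and the lowest control. The means were 28.8 ± 2.50 and 14.7 ± 1.11 CPM (SD, n = 4), a log2 fold change of -0.96 (SE 0.076), or a fall of 48.8%. The gene had 488 to 552 counts in controls and 277 to 754 in mutants, so the deepest mutant library had the most counts and was still low per total.

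Col4a3, which encodes the α3 chain and is the target of antibodies in Goodpasture disease, had 4.49, 3.78, 4.69 and 4.68 CPM in controls and 2.33, 2.81, 2.29 and 2.08 CPM in mutants. Again every mutant lay below every control. The means were 4.41 ± 0.431 and 2.38 ± 0.306 CPM (SD, n = 4), with a log2 fold change of -0.86 (SE 0.14). It was the member with the fewest reads, 67 to 85 counts in controls and 37 to 137 in mutants, so counting error was wide for single libraries. The exact (Clopper-Pearson) 95% interval of the unscaled level was 2.91 to 4.77 CPM in control replicate 2, the lowest control, and 2.36 to 3.33 CPM in mutant replicate 2, the highest mutant. These intervals cover counting error only, and they overlapped for this closest pair of libraries.

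In whole lung RNA, fewer cells that express a gene and less RNA per cell cannot be told apart, here as for all values. Among the 4 libraries that held Xist together with Y-linked transcripts, Col4a4 had 25.8 and 27.7 CPM in controls and 14.7 and 15.6 CPM in mutants, and Col4a3 4.49 and 4.68 against 2.29 and 2.08 CPM. Fitted on these 4 libraries alone, a choice made after the data were seen, the log2 fold change was -0.82 for Col4a4, which was called, and -1.06 for Col4a3, which was not.

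Col4a1 and Col4a2, which encode the α1 and α2 chains of the widespread trimer, had nearly equal group means. Col4a1 had 1030.2, 1267.6, 1243.9 and 1154.7 CPM in controls and 1027.5, 1187.5, 1239.1 and 1161.5 CPM in mutants. Col4a2 had 583.7, 731.0, 689.6 and 622.0 CPM in controls and 574.1, 661.6, 680.1 and 631.5 CPM in mutants. The groups overlapped almost completely for both genes, and replicate 1 was the lowest library of each group. The log2 fold change was -0.03 (SE 0.081) for Col4a1, with a 95% interval of -0.21 to 0.16, and -0.04 (SE 0.081) for Col4a2, with -0.23 to 0.14. In percent, the intervals ran from -13.8% to 12.03% and from -14.9% to 10.5%.

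Col4a5, which encodes the α5 chain that joins both of the less widespread trimers, had 82.0, 89.4, 87.9 and 99.1 CPM in controls and 89.3, 83.1, 95.8 and 99.4 CPM in mutants. Its partner Col4a6 had 44.9, 48.5, 49.1 and 52.8 CPM in controls and 48.0, 50.04, 49.5 and 50.1 CPM in mutants. Mutants fell within the control range for Col4a6, and for Col4a5 all but mutant replicate 4, which lay just above it. The log2 fold change of Col4a5 was 0.03 (SE 0.063, 95% interval -0.10 to 0.17) and that of Col4a6 was 0.02 (SE 0.05, 95% interval -0.09 to 0.12). Both genes are on the X chromosome, and Xist differed between libraries as given above. Their levels in control replicates 2 and 3, with the highest Xist, lay between those of control replicates 1 and 4. In mutant replicates 1 and 2, with almost no Xist, Col4a5 had 89.3 and 83.1 CPM. Mutant replicates 3 and 4 were higher, at 95.8 and 99.4 CPM, while for Col4a6 these mutants overlapped. Libraries with Xist but almost no Y-linked transcripts were all controls, and those with the reverse were all mutants. Sex is thus partly confounded with group.

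**Figure D2:**
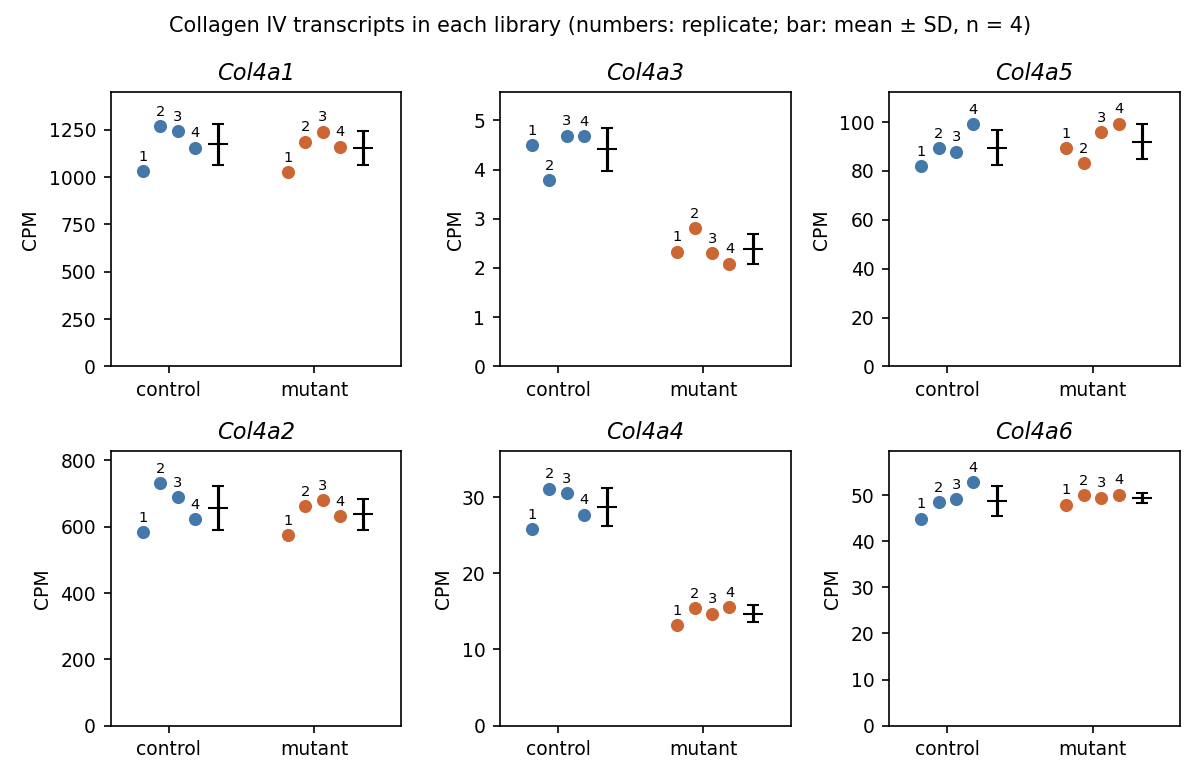
CPM of each collagen IV gene in the 4 control and 4 mutant libraries, with 1 panel per gene, vertical axes that start at 0, replicate numbers beside the points, and the mean ± SD as a bar. Control and mutant points are separate for Col4a3 (lowest control 3.78, highest mutant 2.81 CPM) and Col4a4 (25.8 and 15.6 CPM) and overlap for the other 4 genes.

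By pair, the mean of the fitted log2 fold changes was -0.91 for Col4a3 and Col4a4, -0.03 for Col4a1 and Col4a2, and 0.03 for Col4a5 and Col4a6. Within each pair the genes had fold changes of similar size. For Col4a1, Col4a2, Col4a5 and Col4a6 these were closer to no change than their SE, so nothing is read from their signs. Across 16 alternative fits, Col4a1 kept its sign in 11, Col4a2 in 12, Col4a5 in 14 and Col4a6 in 15. The difference between the pairs was not tested, since these values chose the genes.

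Per kb of merged exon, the levels spanned a wide range, and their order was the same in both groups. In control libraries Col4a1 had 157.3 ± 14.4, Col4a2 99.2 ± 9.99, Col4a5 13.3 ± 1.05, Col4a6 6.12 ± 0.405, Col4a4 2.71 ± 0.235 and Col4a3 0.442 ± 0.0432 CPM per kb (SD, n = 4). In mutants the same levels were 154.6 ± 12.1, 96.2 ± 7.0, 13.7 ± 1.07, 6.20 ± 0.125, 1.39 ± 0.105 and 0.239 ± 0.0307 CPM per kb. The ranges of neighbours in this order did not overlap in either group. By fold, the closest neighbours were Col4a2, at 88.2 to 110.4, and Col4a1, at 138.0 to 169.8 CPM per kb in controls.

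The makeup of the collagen IV transcripts followed from these levels. Col4a1 and Col4a2 together held 91.9% ± 0.667 of the sum over the 6 genes per kb in controls and 92.1% ± 0.567 in mutants (SD, n = 4). Col4a5 and Col4a6 held 7.0% ± 0.654 and 7.32% ± 0.564. Col4a3 and Col4a4 held 1.17, 1.09, 1.14 and 1.13% in the controls and 0.601, 0.622, 0.555 and 0.613% in the mutants, by replicate number. Of the 3 pairs, this was the 1 whose groups did not overlap, with a log2 change of the share of -0.92 and an SD of 0.0302 points in controls and 0.0297 points in mutants.

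The ratios between chains of 1 trimer showed where the balance shifted. Col4a1 to Col4a2, the chains of the widespread trimer, was 1.59 ± 0.0469 in controls and 1.61 ± 0.0207 in mutants (ratio of counts per kb, SD, n = 4). It lay below the ratio of 2 α1 chains to 1 α2 chain that the protein has, at the level of transcripts and with lengths from merged exons. For the α3, α4 and α5 trimer, Col4a4 to Col4a5 was 0.204 ± 0.0206 in controls and 0.102 ± 0.0108 in mutants. Col4a3 to Col4a5 was 0.0333 ± 0.00388 and 0.0176 ± 0.00369. Col4a3, the scarcest of the 3 in both groups, kept its ratio to Col4a4 at 0.165 ± 0.0253 and 0.173 ± 0.0234, with overlapping libraries. Col4a6 to Col4a5 was 0.460 ± 0.00897 and 0.455 ± 0.0366. The ratios are of whole-lung transcripts, and do not show which chains were made in the same cells or joined into trimers.

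**Figure D3:**
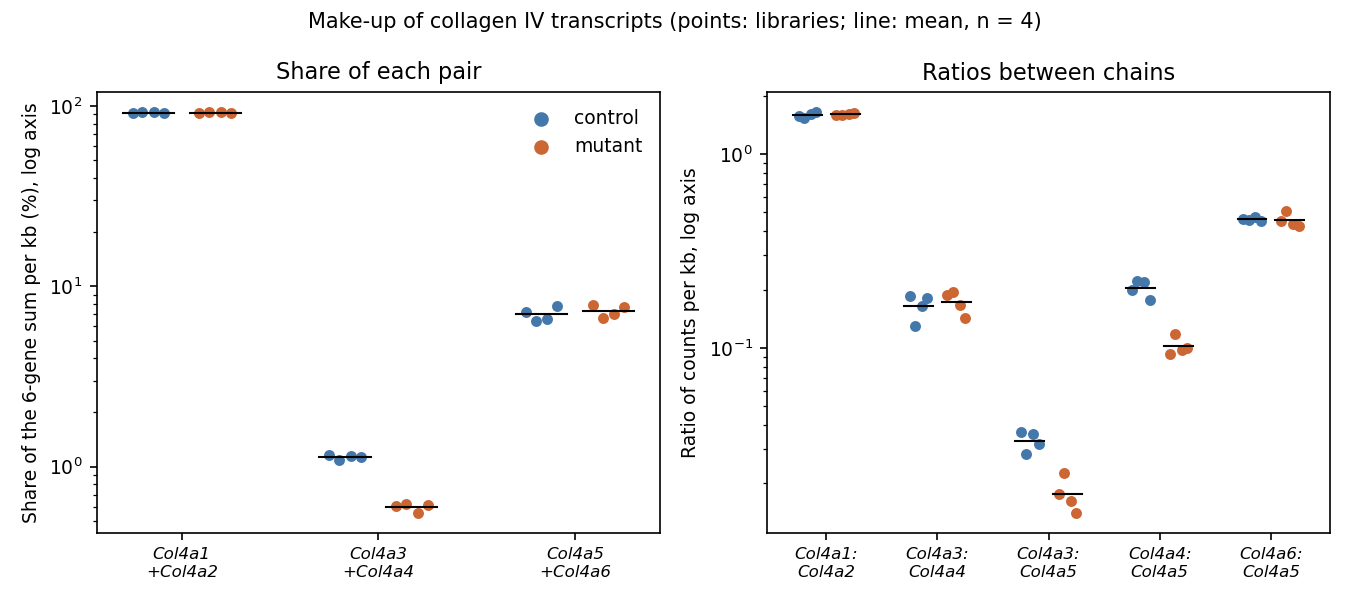
Share of each pair in the sum of the 6 genes per kb (left, percent) and ratios between chains (right), both on log axes, with 1 point per library and the mean as a line. The Col4a3 and Col4a4 share lies at 1.09 to 1.17% in controls and 0.555 to 0.622% in mutants, and the ratios of Col4a3 and of Col4a4 to Col4a5 are lower in mutants, while the other shares and ratios overlap.

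Within the groups, the genes of a pair did not track each other equally. Col4a1 varied by 0.299 on the log2 CPM scale between the highest and lowest control and Col4a2 by 0.324, while their log2 ratio varied by 0.0984. In mutants the ranges were 0.270, 0.244 and 0.0394. The log2 ratio of Col4a5 to Col4a6 varied by 0.0681 in controls and 0.255 in mutants. That of Col4a3 to Col4a4 varied by 0.515 in controls and 0.429 in mutants, more than either gene alone, and Col4a3 had as few as 37 counts in a library.

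Profiles over the 8 libraries were compared by the root mean square (RMS) difference in log2 CPM after the control mean of each gene was subtracted. Only genes that averaged 1 or more in log2 CPM were ranked. Of 13122 genes ranked, Col4a2 had the profile nearest to Col4a1, and Col4a1 the nearest to Col4a2, at an RMS difference of 0.0310. Col4a3 and Col4a4 each ranked the other at 5, with 0.198. Col4a6 ranked 212 for Col4a5, and Col4a5 ranked 1724 for Col4a6, with an RMS difference of 0.0723. Ranks cannot be compared between pairs, since Col4a5 and Col4a6 ranked lower at a smaller RMS difference than Col4a3 and Col4a4. The shared fall by which Col4a3 and Col4a4 were chosen enters their rank, so nothing is read from it.

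The genes nearest to Col4a3 were Hoxb8, a homeobox transcription factor gene, with an RMS difference of 0.124, Tdo2, which encodes tryptophan dioxygenase, with 0.135, and Pappa2, which encodes a protease of insulin-like growth factor binding proteins, with 0.148. Those nearest to Col4a4 were Pappa2 with 0.0929, Lrp8os2 with 0.164 and Olfr1372-ps1 with 0.172. Pappa2 was the 1 gene named for both. It had 20.5 ± 1.41 CPM in controls and 10.95 ± 0.982 CPM in mutants (SD, n = 4), and Hoxb8 had 12.998 ± 1.04 and 7.20 ± 0.611 CPM. Since each control mean was set to 0, a like difference between the groups enters this measure as well as a like pattern within them.

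**Figure D4:**
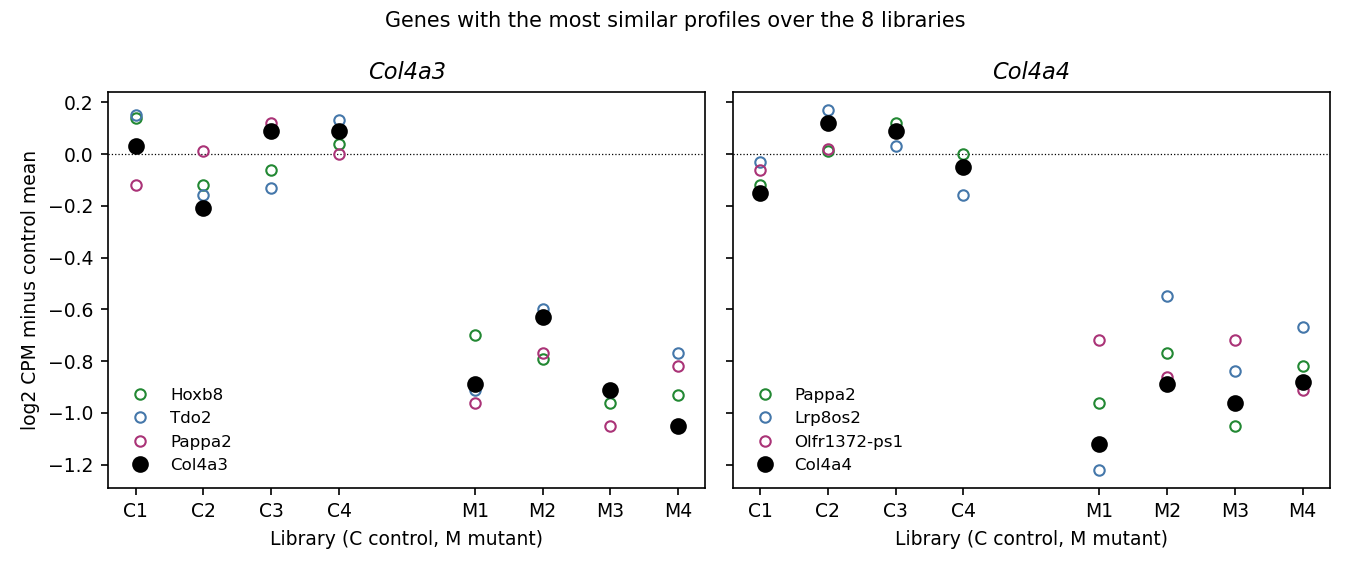
log2 CPM minus the control mean in each library (vertical axis) for Col4a3 (left) and Col4a4 (right), filled, with the 3 genes of most similar profile, open. All points of the mutants M1 to M4 lie below all points of the controls C1 to C4 in both panels.

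The nearest tested genes on each side of the pairs did not pass the test. Rhbdd1, 3056 bases beyond the end of Col4a4, had 15.0 ± 0.754 CPM in controls and 14.8 ± 1.21 CPM in mutants (log2 fold change -0.02, SE 0.077, edgeR adjusted p = 0.928). Mff, a mitochondrial fission gene 2830 bases beyond the end of Col4a3, had 82.7 ± 4.43 and 86.2 ± 3.09 CPM (log2 fold change 0.06, SE 0.044, edgeR adjusted p = 0.592). Around Col4a1 and Col4a2, Irs2, 189964 bases away, and Rab20, 4230 bases away, had log2 fold changes of -0.11 (SE 0.052) and -0.02 (SE 0.11). Around Col4a5 and Col4a6, Atg4a, 1132 bases away, and Nxt2, 537535 bases away, had 0.16 (SE 0.075) and -0.07 (SE 0.081). Beside the pair on chromosome 1, at -0.96 for Col4a4 and -0.86 for Col4a3, the nearest tested genes on either side thus had log2 fold changes near 0, and none of the 6 neighbours was called.

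Genes that make, link, bind or break down collagen IV were compared as 5 lists. Over all tested genes, 13.9% had an unadjusted p below 0.05 in edgeR, beside which the counts at that threshold below can be read. Among 21 genes of chain modification, folding and secretion, 0 passed in edgeR or DESeq2 and 1 had an unadjusted p below 0.05. Their median log2 fold change was 0.04, beside 0.00 over all tested genes. Serpinh1, the collagen chaperone HSP47 that collagen IV needs for folding, had 1817 ± 59.7 CPM in controls and 1698 ± 84.5 CPM in mutants (log2 fold change -0.10, SE 0.035, edgeR adjusted p = 0.197). P4hb, a subunit of prolyl hydroxylase, had 918.0 ± 35.8 and 945.3 ± 15.9 CPM (log2 fold change 0.04, SE 0.032).

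Both listed crosslinking enzymes were measured well and did not pass in edgeR or DESeq2, and neither had an unadjusted p below 0.05. Pxdn, peroxidasin, which forms the sulfilimine bond between collagen IV trimers, had 341.8 ± 13.48 and 332.5 ± 9.98 CPM (log2 fold change -0.04, SE 0.036). Loxl2, a lysyl oxidase, had 120.9 ± 4.84 and 115.9 ± 3.41 CPM (log2 fold change -0.06, SE 0.038). Of 8 receptor genes 0 passed in edgeR or DESeq2 and 1 had an unadjusted p below 0.05, with a median log2 fold change of 0.03. Itgb1, the integrin β1 chain shared by collagen receptors, had 570.9 ± 14.2 and 582.5 ± 22.2 CPM. Ddr1, a collagen receptor tyrosine kinase, had 123.1 ± 7.24 and 119.6 ± 1.95 CPM.

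Of 21 partners in the basement membrane, 1 rose and 20 did not pass, 14 of the 21 with negative log2 fold changes and a median of -0.05. At an unadjusted p below 0.05 there were 4, Lama4 and 3 laminin chain genes with negative log2 fold changes, Lama3 (-0.22), Lama5 (-0.15) and Lamc3 (-0.54), which did not pass after adjustment and were named after their values were seen. The gene that rose was Lama4, a laminin chain of vessels, with 149.8 ± 10.1 CPM in controls and 177.5 ± 9.45 CPM in mutants (log2 fold change 0.25, SE 0.048, edgeR adjusted p = 0.0174). Its call was lost without control replicate 1 and without mutant replicate 2. Of 10 genes of breakdown and its inhibitors, 8 were tested, 0 passed in edgeR or DESeq2 and 4 had an unadjusted p below 0.05, with a median log2 fold change of 0.02. These 4 were Mmp2 (-0.07), Mmp15 (-0.12), Mmp9 (0.55) and Timp4 (0.94), all but Mmp2 named after their values were seen. Mmp9 and Timp4 were low, with means of 0.940 and 0.569 CPM in controls and 1.37 and 1.07 CPM in mutants. Mmp2, a gelatinase that cleaves collagen IV, had 419.2 ± 9.06 and 398.4 ± 3.43 CPM, and Mmp14, its membrane-bound activator, had 294.9 ± 9.06 and 297.0 ± 13.53 CPM. Mmp3 and Mmp7 were not tested, with at most 1 count in any library. Timp4 lay between Col4a3 and Col4a4 in the size of its log2 fold change, with the opposite sign. How Col4a3 and Col4a4 compare with these lists is a description, since the lists were not tested as sets.

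**Figure D5:**
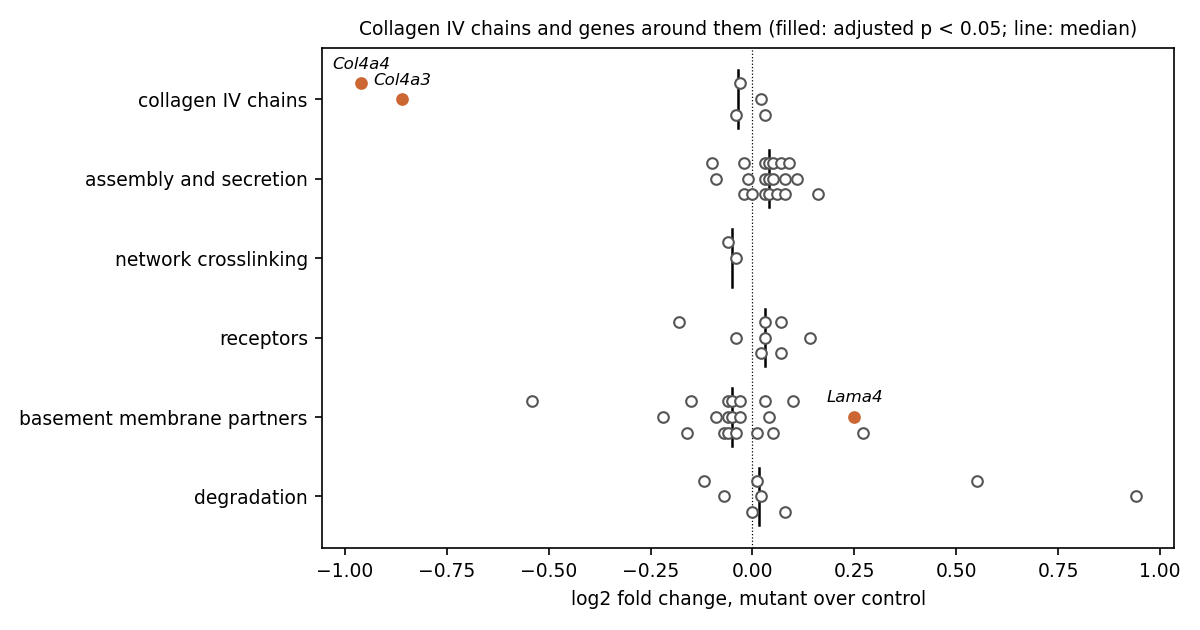
log2 fold change, mutant over control, of the 6 collagen IV genes and of the tested genes of the 5 lists, with 1 point per gene, filled where the adjusted p was below 0.05, and the median as a line. Col4a4 at -0.96 and Col4a3 at -0.86 lie apart from the other 4 chains, and Lama4 at 0.25 is the 1 filled point in the lists.

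Marker genes of several cell types were summed per library to show what else differed between the lungs. The mesothelial sum was lower in every mutant, at 251.8 to 305.9 CPM against 328.5 to 362.3 CPM in controls, and 4 of 11 markers fell (Wt1, Upk3b, Lrrn4 and Gpm6a), with 7 at an unadjusted p below 0.05. By replicate number, the mesothelial sums of the mutants were 305.9, 251.8, 260.1 and 258.2 CPM. The distal tip sum was also lower, at 530.9 to 581.2 against 603.2 to 645.0 CPM, with 1 of 4 markers called, Etv5, and no other at an unadjusted p below 0.05. Etv5 alone made up most of this sum, with means of 383.2 CPM in controls and 338.8 CPM in mutants. The lower sum is thus largely that of 1 gene. Sums of 3 lists were higher in every mutant. These were pan-epithelium, at 1019 to 1069 against 962.9 to 1005 CPM with 0 of 9 called and 7 at an unadjusted p below 0.05, and proximal airway, at 43.4 to 50.2 against 31.1 to 40.4 CPM with 2 of 6 called (Sox2 and Cldn10) and 3 at an unadjusted p below 0.05. The third was nerve and neural crest, at 31.5 to 35.4 against 25.0 to 28.04 CPM with 1 of 5 called, Ret, and 3 at an unadjusted p below 0.05. All 9 pan-epithelial markers had positive log2 fold changes. The proximal airway markers were split, with 3 positive and 3 negative, and those of nerve and neural crest were 4 positive and 1 negative. Over all tested genes 1.49% were called.

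The sums of the other lists given here overlapped between groups. They were 90.5 to 108.0 CPM in mutants and 100.1 to 117.4 CPM in controls for markers of alveolar type 1 cells, with 0 of 6 called and 1 at an unadjusted p below 0.05. In these cells α3 and α4 chains are known from the adult lung, and whether such cells were present at E13.5 was not tested. The sums were 1017 to 1085 and 948.3 to 1028 CPM for endothelium (1 of 8 called, Emcn, higher, with 3 at an unadjusted p below 0.05 and all 8 log2 fold changes positive), and 1118 to 1230 and 1030 to 1122 CPM for smooth muscle (0 of 6 called, with 4 at an unadjusted p below 0.05 and all 6 log2 fold changes positive). For lung mesenchyme they were 991.9 to 1052 and 1024 to 1079 CPM (1 of 7 called, Wnt2, lower, and 3 at an unadjusted p below 0.05), and for pericytes 575.2 to 660.4 and 591.2 to 660.7 CPM (0 of 5 called and 0 at an unadjusted p below 0.05). Heart muscle gave 79.9 to 108.7 and 58.1 to 95.8 CPM, with 4 of 5 markers tested, 0 called and 1 at an unadjusted p below 0.05. The part of these cell types in the levels of Col4a3 and Col4a4 was not tested.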

How the data were processed

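The authors deposited 1 table of raw counts of read pairs per gene, without normalization. Per the file headers, pairs were counted by featureCounts 1.6.4 (strand option 2) over the exons of each GENCODE vM25 gene. The deposited exon length per gene was used to compare genes. STAR, DESeq2 and the build GRCm38 are named in the submitters' processing notes, with no version of STAR. Per the labels' protocols, libraries were made with a stranded Illumina messenger RNA kit.

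All 8 libraries entered 1 fit in edgeR 4.0.16 (R 4.3.3) with its expression filter, TMM scaling and robust dispersions. The quasi-likelihood test (two-sided) of mutant against control was used, with Benjamini-Hochberg adjustment over 15788 genes and a threshold of 0.05. Log2 CPM used a prior count of 2. DESeq2 1.42.0 was an alternative. In simulated counts for these 15788 genes, mutant against control, 76% of 1.5-fold and 91% of 2-fold changes were recovered. Of the simulated calls 8.74% were false, a larger share than the 0.05 that the threshold aims at. Pairs of libraries within a group differed by 2.92 to 8.45 times the sampling variance, more than 1 library sequenced again would by sampling alone. This does not show whether any were separate libraries from the same RNA. Figures were drawn with matplotlib 3.10.9.

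The collagen IV genes and the lists were chosen with earlier results of these data known. Named genes were the 6 members, called genes of each of the 5 lists or else its 2 highest by mean level, the nearest tested gene on each side of each pair, the 3 genes most like Col4a3 and Col4a4, and called markers, without provisional names. Mmp3, Mmp7, Mmp9, Mmp15, Timp4, Lama3, Lama5 and Lamc3 were named after their values were seen. The result of 1 marker list is not reported here.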

Additional observations from a re-analysis of the deposited data

How the results depend on the processing

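Col4a3 and Col4a4 kept negative log2 fold changes in all 16 alternatives, from -1.06 to -0.81 and from -1.01 to -0.82. Because this contrast chose the genes, nothing is read from their calls, here as above. Col4a4 was called in all 16 alternatives and Col4a3 in 15. The exception was the fit of the 4 libraries that held Xist together with Y-linked transcripts, with 1 member and 87 genes called (55 higher, 32 lower). In that fit, chosen after the data were seen, Col4a1 and Col4a2 averaged 0.13, and the log2 changes of Col4a3 to Col4a4 and of Col4a3 to Col4a5 were -0.25 and -1.18. With a Y-linked covariate (log2 level) the pair Col4a1 and Col4a2 averaged 0.09, and 97 genes were called (53 higher, 44 lower), against 89 higher and 147 lower of 236 as reported.

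The count of genes was 791 without the low-count filter, 142 without robust estimation, 359 with DESeq2, and 96 to 479 without each library in turn. Of the basement membrane partners, 3 were called without the filter (1 higher, 2 lower) and 0 to 2 without each library in turn, and of the receptors 0 to 1, the 1 without control replicate 4. Whether replicate numbers pair the libraries is not given by the labels and was not settled here. Deviations from the group means correlated at 0.0811, 0.0648, 0.181 and 0.0125 for numbers 1 to 4. Control replicates 1, 2 and 3 correlated best with the mutant of their own number. Control replicate 4 correlated best with mutant replicate 1, at 0.133, so not every library correlated best with its own number. With the number as a replicate block 541 genes and 3 basement membrane partners (1 higher, 2 lower) were called, and 2 members were called.

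Without division by length, the control share of Col4a3 and Col4a4 was 1.66%, and the ratios were 1.79 for Col4a1 to Col4a2, 0.0494 for Col4a3 to Col4a5, 0.322 for Col4a4 to Col4a5 and 0.545 for Col4a6 to Col4a5. With the longest coding transcript as the length, an alternative chosen after the data were seen, they were 1.75 for Col4a1 to Col4a2, 0.0377 for Col4a3 to Col4a5 and 0.536 for Col4a6 to Col4a5. These shifts follow from the lengths; the cause of the others was not tested. The count of Col4a3, 37 in its smallest library, limits its precision.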

Other observations

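Col4a1 and Col4a2 were lowest in replicate 1 of both groups, at 1030.2 and 583.7 CPM in the control library. The mutant library had 1027.5 CPM of Col4a1 and 574.1 CPM of Col4a2. The summed level of the 21 basement membrane partners was also lowest there, at 5110 CPM of 5110 to 5888 CPM in controls and 5122 CPM of 5122 to 5674 CPM in mutants. The replicate numbers come from the titles and mark no shared litter or batch in the labels. Col4a4 in controls was lowest in the same library, at 25.8 CPM, and so were Col4a5 and Col4a6, at 82.0 and 44.9 CPM, while Col4a3, at 4.49 CPM, was lowest in control replicate 2. Among mutants Col4a4 and Col4a6 were lowest in replicate 1, Col4a5 in replicate 2 and Col4a3 in replicate 4.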
